A study of Mus musculus with 6 samples.

Results

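Interstitial Macrophages 1 is the name the authors gave to 268 of the 55882 cells with a class in a single-cell RNA-seq atlas of the neonatal mouse lung. The members were taken by that deposited name alone, and no expression cut was applied. Interstitial macrophages are the macrophages of the lung's connective tissue, around airways, vessels and nerves, whereas alveolar macrophages live in the air spaces. They are known for making complement C1q, for clearing dying cells through scavenger receptors, and for a division into cells with resident, vessel-associated genes (Lyve1, Folr2, Cd163) and cells with MHC class II genes. The lung macrophage pool is renewed around birth, partly from blood monocytes that carry Ccr2.

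All mice were wild type C57BL/6N, and each library pooled the lungs of 3 mice of 1 sex. A female and a male library came from room air at postnatal day 1, and a female and a male library from room air at postnatal day 21. The remaining female and male libraries came from mice that breathed 95% oxygen from postnatal day 1 to day 5 (hyperoxia) and then room air until day 21. Lungs were perfused, dissociated and sorted for live cells with no cell type gate, so that cells of every lineage shared each droplet run. The libraries held 122173482 to 163649658 UMIs (unique molecular identifiers, each counting 1 captured transcript). With 1 library per sex, age and treatment there was no replicate of any group, and the intervals given cover counting error only. The day 1 files were made with Cell Ranger 6.0.0 and the day 21 files with 7.0.1, per their headers, so age and software version cannot be told apart. Across the 6 libraries, 1 barcode of the class was also seen in another library, and 0 barcodes carried this class in both.

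Nearly all of these cells came from newborn lungs. The female day 1 library held 102 of them and the male day 1 library 139, whereas the day 21 libraries held 8 (female, room air), 6 (male, room air), 7 (female, hyperoxia) and 6 (male, hyperoxia). As a share of cells with a class this was 0.884% (exact binomial interval 0.721 to 1.07) and 1.23% (1.04 to 1.45) at day 1. At day 21 it was 0.0940% (0.0406 to 0.185) and 0.0848% (0.0311 to 0.185) in the room air libraries, and 0.0838% (0.0337 to 0.172) and 0.0658% (0.0241 to 0.143) after hyperoxia. Every day 21 share lay below both day 1 shares, while the room air and hyperoxia intervals at day 21 overlapped. The mean share was 0.976 percentage points higher at day 1. The class was chosen for description with this excess known, and 2 against 4 libraries allow no exact permutation p below 0.133, so the difference is a description with no test.

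**Figure D1:**
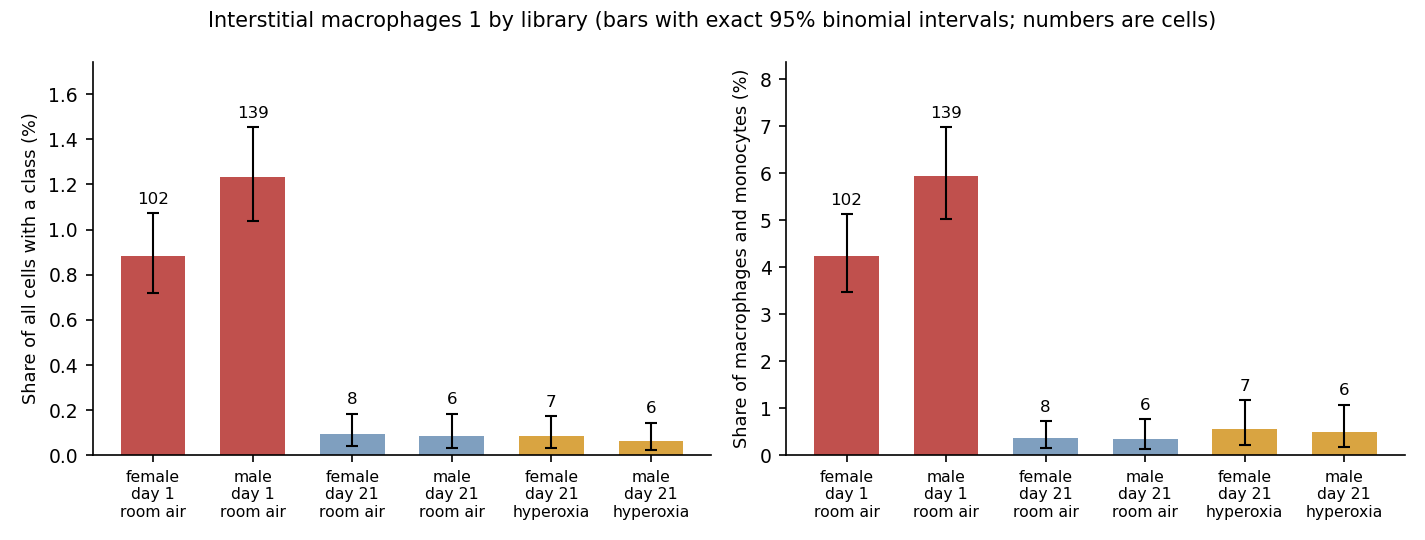
Share of interstitial macrophages 1 in each library, of all cells with a class (left axis panel, percent) and of all macrophages and monocytes (right panel, percent). Bars are single libraries with exact binomial 95% intervals, and the numbers are cells. The day 1 bars (102 and 139 cells) stand above the 4 day 21 bars (6 to 8 cells) in both panels.

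The same order held within the macrophages and monocytes, where the class made up 4.25% and 5.95% at day 1. At day 21 it made up 0.368% and 0.352% of them in the room air libraries, and 0.570% and 0.494% in the hyperoxia libraries. The classes around it changed names with age. Transient Macrophages (1272 and 1212 cells), Classical Monocytes 1 (560 and 447) and Classical Monocytes 2 (274 and 335) were present at day 1 and had 0 cells at day 21, and Classical Monocytes had 0 cells at day 1. Interstitial Macrophages 2 had more cells at day 21, with 13 and 17 cells at day 1 and 53, 51, 28 and 27 at day 21. Whether cells of 1 lineage were given different names at the 2 ages was not tested.

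The day 1 cells held the markers of their label. C1qa was found in 98.0% of the female and 95.7% of the male cells, against 0.828% and 1.76% of alveolar type 1 epithelial (AT1) cells of the same libraries, which should lack it. Mrc1, the mannose receptor, was found in 77.5% and 77.0%, against 2.92% and 0.963% of AT1 cells. The median depth was 9645 and 10019 UMIs per cell in the class and 10294 and 9381 in AT1 cells. A sum of at least 20 UMIs over C1qa, C1qb and C1qc was reached by 100 of 102 and 131 of 139 cells.

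Some members also held RNA of other lineages. Cells with at least 10 UMIs of an epithelial (Sftpc left out), endothelial or fibroblast marker list numbered 15 of 102 (14.7%) in the female and 33 of 139 (23.7%) in the male library. In the other 4 classes compared at day 1 that share was 2.68% to 10.1% in the female and 2.99% to 7.91% in the male library. Scrublet called 11 and 29 of the day 1 members doublets. Values that moved when these cells were left out are given beside the results, with the setting chosen after the data were seen.

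At day 1 the class was set beside the 4 other macrophage or monocyte classes with at least 50 cells: Alveolar Macrophages, Transient Macrophages, Classical Monocytes 1 and Classical Monocytes 2. Levels are CPM, the UMIs of a gene per 1000000 UMIs of the class in 1 library. They count transcript ends and do not scale with gene length. In the day 1 results that follow, the other or next class means 1 of these 4. Interstitial Macrophages 2 (13 and 17 cells) and Nonclassical Monocytes (32 and 11 cells) had too few cells to enter. The authors' clustering used these genes, so the values describe the class and no test was made. Of 3200 genes with at least 50 UMIs in the class in each library, 76 (2.38%) were at least 4-fold above each of the other 4 classes in both libraries. Without the cells that held RNA of other lineages there were 60, of which 52 were among the 76. Leaving out a library moved the count, to 221 without the female library and to 88 without the male library. Over 7590 genes with a mean of at least 10 CPM across the 5 classes, 212 (2.79%) were at least 2-fold above all 4 and 69 (0.909%) at least 2-fold below all 4 in both libraries.

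All of the C1q genes were among the defining genes. They encode the chains of C1q, the recognition unit of the classical complement pathway, and lie side by side on chromosome 4. C1qa (chr4:136895917-136898803, GRCm38) stood at 3984 CPM in the female and 3913 in the male library. The highest of the 4 classes compared, Alveolar Macrophages, stood at 33.6 and 23.3, which made C1qa 119-fold (94.7 to 151) and 168-fold (134 to 213) higher in interstitial macrophages 1. C1qb (chr4:136880129-136886187) stood at 4755 and 4347 CPM, 54.0-fold (49.5 to 59.1) and 29.4-fold (27.2 to 31.8) above Classical Monocytes 1. C1qc (chr4:136889804-136893065) stood at 3083 and 2975 CPM, 99.5-fold above Alveolar Macrophages in the female library and 88.8-fold above Classical Monocytes 1 in the male library. Interstitial Macrophages 2, which was not among those 4, held more of each than they did, with C1qa at 445 and 163 CPM, C1qb at 926 and 522 and C1qc at 285 and 83.2. Of its cells, 3 of 13 and 5 of 17 had at least 20 C1q UMIs. Nonclassical Monocytes held C1qb at 211 and 925 CPM.

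Of 17 complement genes, 11 passed the level filter, and 4 of these were at least 2-fold above all 4 classes while 1 was below, beside 2.79% and 0.909% of all genes. Beside the C1q genes, the gene above was C3ar1, the receptor of the C3a fragment, at 409 and 300 CPM against at most 21.1 and 19.9 in another class. The gene below was C3 itself, the central component, at 37.0 and 22.9 CPM against 294 and 385 in Classical Monocytes 2.

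The sequences upstream of C1qb and Pf4 are shown with short elements marked. The class also held a higher level of Maf than the 4 classes, described further on, and a link of Maf to either gene was not tested. Each is the 250 bases before the transcript start, from RefSeq on GRCm38.p6, written 5′ to 3′ on the gene's strand. Capitals mark GAGGAA, a short form of the element bound by ETS factors such as PU.1, or its other strand TTCCTC, and TGCTGA, a half-site of the element bound by Maf, or its other strand TCAGCA. The C1qb window (chr4:136886201-136886450, minus strand) holds both. The Pf4 window (chr5:90772185-90772434, plus strand) holds GAGGAA on the opposite strand and TGCTGA on neither strand.
C1qb: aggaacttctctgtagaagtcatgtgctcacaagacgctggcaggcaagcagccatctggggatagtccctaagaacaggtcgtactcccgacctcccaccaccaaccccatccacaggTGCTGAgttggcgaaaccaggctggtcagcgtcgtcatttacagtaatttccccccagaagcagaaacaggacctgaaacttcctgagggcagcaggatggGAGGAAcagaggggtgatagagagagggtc
Pf4: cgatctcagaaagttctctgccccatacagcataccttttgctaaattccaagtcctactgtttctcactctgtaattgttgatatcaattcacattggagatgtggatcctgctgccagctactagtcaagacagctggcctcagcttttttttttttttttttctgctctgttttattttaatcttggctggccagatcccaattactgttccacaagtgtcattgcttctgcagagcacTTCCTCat
In C1qb the half-site lies at -131 to -126 and the ETS core at -30 to -25 from the start. RefSeq and GENCODE do not place every start alike, and the RefSeq windows of C1qc and Fcrls overlap exons of the same genes in GENCODE. Of 27025 RefSeq promoters, 6252 (23.1%) hold GAGGAA on either strand, 4275 (15.8%) hold TGCTGA and 982 (3.63%) hold both. Of the 20 defining genes named by rule, 15 were in the table, and 8 of these hold GAGGAA, 7 hold TGCTGA and 5 (C1qb, Ccl12, Fcna, Fcrls and Stab1) hold both. A match is a string of letters, not a measured binding site.

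Scavenger receptors and surface molecules of resident macrophages were also among the genes high in the class. Cd163, the haemoglobin scavenger receptor (chr6:124304656-124330527), stood at 83.2 and 84.4 CPM. In the female library none of the other 4 classes held a Cd163 UMI, so the level was at least 63.6-fold higher against a floor of 3 UMIs. In the male library the highest other class, Classical Monocytes 1, held 1 UMI, a ratio of 413 with an interval from 72.8 to 16444. Fcrls, an Fc receptor-like scavenger molecule also known from microglia (chr3:87250758-87263738), stood at 457 and 510 CPM, 160-fold (86.5 to 337) and 218-fold (114 to 478) above Classical Monocytes 2. Stab1, the scavenger receptor stabilin-1, stood at 455 and 438 CPM, 69.5-fold and 49.5-fold above Classical Monocytes 2. Folr2, the folate receptor of resident macrophages, stood at 44.4 and 39.9 CPM and at 0 in all 4 other classes of both libraries. With 48 UMIs in the female library it fell short of the minimum for ranking and is named from the list of resident genes.

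**Figure D2:**
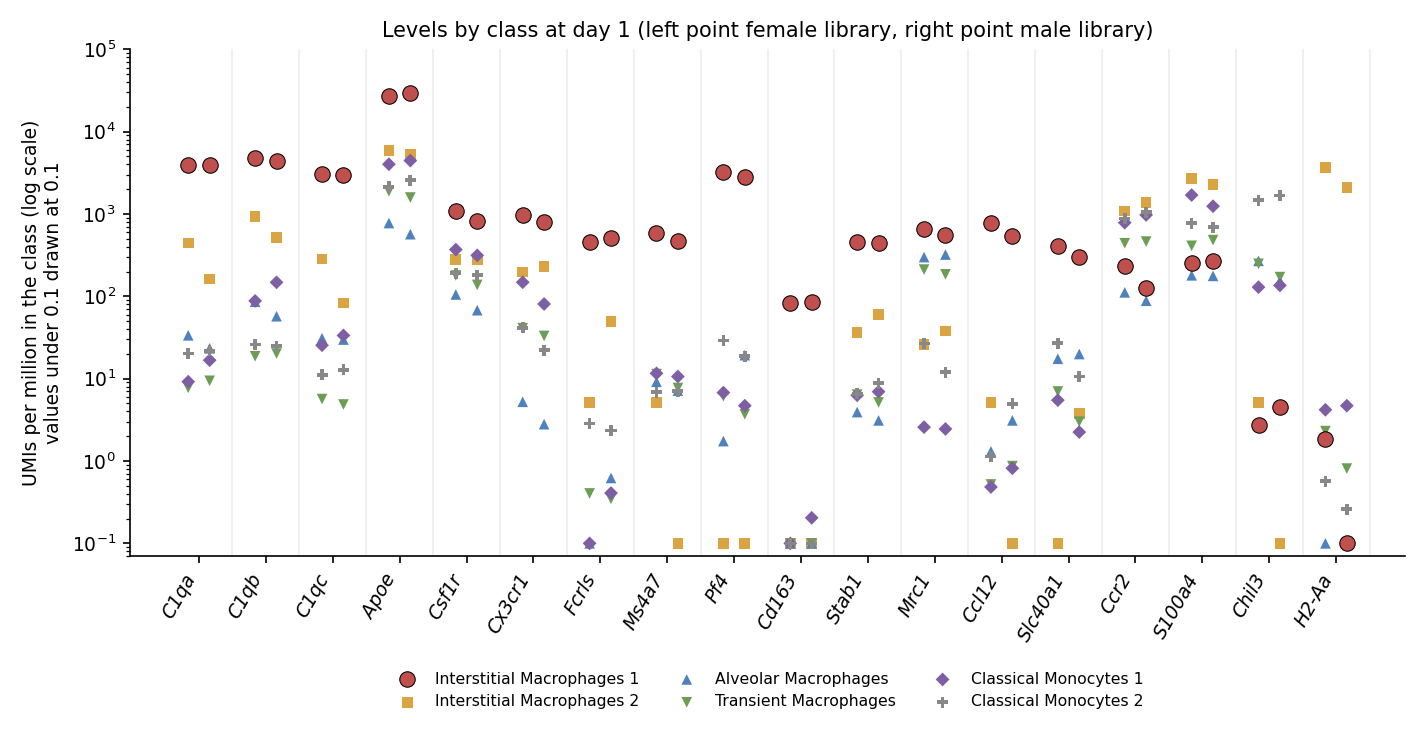
Levels of 18 genes at day 1 in CPM (log axis, values under 0.1 drawn at 0.1). Each symbol is 1 class, with the female library on the left and the male library on the right of each gene. Interstitial macrophages 1 (large circles) lie above every other class drawn for C1qa to Slc40a1 and below the monocyte classes for Ccr2, S100a4 and Chil3. H2-Aa is high in Interstitial Macrophages 2 alone among the classes drawn.

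Of the 18 genes in a list of perivascular resident macrophage genes, 12 passed the level filter and 9 were at least 2-fold above all 4 classes (Lyve1, Cd163, Pf4, Gas6, Stab1, Fcna, Igf1, Ccl24 and Selenop). The background over all genes was the 2.79% given above, and the list was chosen with earlier results of these data known. The filter counts the class itself. Cd163, Gas6, Stab1 and Fcna passed it only through this class, since every other class held them under 10 CPM. For such genes the count above all 4 classes was partly set by the filter. F13a1, Clec4n and Fcgrt, also on the list and well detected in the class, were not among the 9. Some other members of the list were all but absent. Vsig4 and Cd209g had 0 UMIs in the class in both libraries, and Timd4 had 7 and 2 in cells with at least 20 C1q UMIs. Pf4, the chemokine CXCL4 that platelets also store (chr5:90772435-90773383), stood at 3255 and 2784 CPM. It was 112-fold (92.1 to 138) above Classical Monocytes 2 in the female and 144-fold (112 to 189) above Alveolar Macrophages in the male library. The 8 genes of a mast cell and platelet list together held 29.6 and 49.7 CPM in the same cells, against 0.780 to 6.83 in the other 4 classes and 23.4 and 14.5 in AT1 cells, and their part in the Pf4 level was not tested. Mrc1 stood at 654 and 562 CPM, and here the next class was close, since Alveolar Macrophages held 299 and 321 CPM, a ratio of 2.18 (1.96 to 2.43) and 1.75 (1.60 to 1.92). Igf1, the insulin-like growth factor, stood at 127 and 130 CPM against at most 12.4 in another class, and Pdgfb, a growth factor for pericytes, at 64.7 and 62.1 against at most 14.4.

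Lyve1, the hyaluronan receptor that often marks these macrophages, was a weaker marker here. It was found in 29.4% of female and 23.7% of male cells, but also in 25.2% and 18.5% of AT1 cells, so the share of cells cannot be read above background. Its UMIs sat partly in cells with endothelial RNA. The 9 female and 18 male members with at least 10 endothelial UMIs held 77 of 243 (31.7%) and 165 of 230 (71.7%) of the Lyve1 UMIs. Without them the level was 178 CPM in the female and 54.9 CPM in the male library, against 144 and 88.6 in AT1 cells.

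Of 20 chemokine genes on the list, 11 passed the filter and 6 were at least 2-fold above all 4 classes (Ccl2, Ccl7, Ccl12, Ccl24, Cxcl16 and Pf4), beside 2.79% of all genes. Ccl7, Ccl12 and Cxcl16 passed the filter only through this class, since every other class held them under 10 CPM. The list as a whole was not highest in the class. Its sum was 5846 and 4859 CPM, below the 8272 and 11258 of Alveolar Macrophages. Ccl12, a ligand of the monocyte receptor CCR2, stood at 774 and 541 CPM. In the male library this was 109-fold (69.6 to 183) above Classical Monocytes 2, and in the female library the highest other class held 3 UMIs (ratio 591, 202 to 2872). Ccl7, another CCR2 ligand, stood at 131 and 137 CPM, 43.0-fold and 58.7-fold above the next class, and Ccl2 at 164 and 203 CPM against at most 27.3 and 42.1. Cxcl16, a transmembrane chemokine, stood at 247 and 208 CPM, 35.1-fold and 34.6-fold above Transient Macrophages. Of the receptors, Cx3cr1 stood at 964 and 793 CPM against 148 and 80.7 in Classical Monocytes 1, and Ccr2 itself at 230 and 126 against 784 and 973.

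Of 14 iron and heme genes that passed the filter, 6 were at least 2-fold above all 4 classes (Hmox1, Slc40a1, Cd163, Blvrb, Slc48a1 and Spic), again beside 2.79% of all genes. The summed list, at 19640 and 18865 CPM, was lower than in Alveolar Macrophages (34390 and 45395) and near that of Transient Macrophages (17663 and 18389). Hmox1, which breaks heme down, stood at 559 and 595 CPM against at most 113 and 162. Slc40a1, the iron exporter ferroportin, stood at 406 and 300 CPM, 15.0-fold and 15.1-fold above the next class. Spic, a transcription factor of iron-recycling macrophages, stood at 58.2 and 48.4 CPM against at most 4.67 and 5.51. Nonclassical Monocytes, with too few cells to enter, held more Hmox1 (1464 and 1414 CPM) and Spic (257 and 114) than the class. The globin and erythroid list held 24.0 and 4.58 CPM in the class.

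Apoe, an apolipoprotein of lipid transport, took the largest share of UMIs of any gene, 2.73% in the female and 2.92% in the male library. Its level was 27316 and 29194 CPM, against 4016 and 4446 in Classical Monocytes 1, the next highest of the 4 classes. Of 15 lipid handling genes measured, Abca1, a cholesterol exporter (238 and 285 CPM), and Trem2, a lipid receptor (330 and 306), were also at least 2-fold above all 4 classes, which with Apoe made 3 of 15 beside 2.79% of all genes. Among 23 lysosomal genes this held for 2. They were Lgmn, a protease (1620 and 1384 CPM against 380 and 294 in Alveolar Macrophages), and Grn (875 and 851 against at most 405 and 414). Of 17 efferocytosis and scavenging genes measured, 4 (Gas6, Stab1, Cd163 and Colec12) were at least 2-fold above all 4 classes and 0 below. The shares of all genes were 2.79% and 0.909%. Gas6, Stab1 and Cd163 passed the level filter only through this class, since every other class held them under 10 CPM. The receptors Mertk and Axl were not among the 4. Mertk stood at 118 and 70.0 CPM beside 88.1 and 41.4 in Alveolar Macrophages, and Axl at 140 and 93.5 below the 511 and 467 of Transient Macrophages.

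Among the transcription factor genes measured, Maf, Mef2c and Tcf4 were at least 2-fold above all 4 classes. Maf, a bZIP factor of macrophage identity, stood at 987 and 901 CPM, against 110 and 119 in Classical Monocytes 1, the next class. Mef2c stood at 489 and 483 CPM, against 155 and 107 in Classical Monocytes 1. Csf1r, the receptor for the macrophage growth factor CSF-1, stood at 1076 and 833 CPM, 2.91-fold and 2.65-fold above Classical Monocytes 1.

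The remaining genes named by the rule for defining genes were Ctla2b, Ms4a7, G530011O06Rik, Gas6, Crybb1, Mir99ahg, Fcna, Vcam1 and Olfml3. Their lower log2 ratio of the 2 libraries lay between 3.91 (Olfml3) and 5.41 (Ctla2b and Ms4a7), and over all 20 it ran from 3.89 (Slc40a1) to 7.32 (Cd163). Vcam1, a vascular adhesion molecule, stood at 51.8 and 53.6 CPM.

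Against Transient Macrophages, the most numerous macrophage class at day 1, 287 of 7846 genes (3.66%) were at least 4-fold higher and 135 (1.72%) at least 4-fold lower in both libraries. Fcrls, C1qc, Pf4, Ccl12 and C1qa led the higher side, with Fcrls at 0.404 and 0.347 CPM in Transient Macrophages. The lower side was led by F730016J06Rik, Smim5, Acaa1b, Ear1 and 4930431P03Rik. Smim5 had 0 UMIs in the class, at least 6.28-fold and 9.55-fold lower than the 17.4 and 18.7 CPM of Transient Macrophages. Of the alveolar macrophage list, Ear2, an eosinophil-type ribonuclease (25.9 and 36.0 CPM against 748 and 736), and Plet1 (19.4 and 21.6 against 649 and 606) were low. Of 15 genes of that list measured, 2 (Chil3 and Ear2) were at least 2-fold below all 4 classes and 1 (Krt19) above. The shares of all genes were 0.909% and 2.79%. Without the cells with RNA of other lineages the counts were 1 below and 0 above.

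Against Classical Monocytes 1, 206 of 7549 genes (2.73%) were at least 4-fold higher and 66 (0.874%) at least 4-fold lower. Fcrls, Pf4, Ccl12, C1qa and Mrc1 led the higher side, and Chil3, Tiam2, AI839979, Saa3 and S100a8 the lower side. Lyz2, lysozyme, stood at 2820 and 2298 CPM against 11283 and 11997. S100a4 stood at 251 and 268 CPM against 1696 and 1242.

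Against Classical Monocytes 2, 301 of 7509 genes (4.01%) were at least 4-fold higher and 109 (1.45%) at least 4-fold lower. C1qc, C1qa, C1qb, Fcrls and Pf4 led the higher side, and Chil3, S100a8, Elane, Stfa1 and Lcn2 the lower side. Chil3, a chitinase-like protein, stood at 2.77 and 4.58 CPM against 1472 and 1671, a log2 ratio of -8.66 and -8.29. S100a8, an alarmin of neutrophils and monocytes, stood at 220 and 217 CPM against 23017 and 22648, a log2 ratio of -6.70 in both libraries. Of 13 classical monocyte genes measured, 0 were above all 4 classes, and Fn1 and Chil3 were below all 4, beside 2.79% and 0.909% of all genes.

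Interstitial Macrophages 2 had 13 and 17 cells at day 1, too few for ratios under the rule used here, and its values are set beside for description. H2-Aa, an MHC class II chain, was found in 1 of 102 female and 0 of 139 male cells of interstitial macrophages 1. In the male library 3 cells would have been a share of 2.16%. Its level was 1.85 and 0 CPM, against 3654 and 2089 in Interstitial Macrophages 2. The 10 MHC class II genes together held 466 and 305 CPM, against 22522 and 15664. In the opposite direction, C1qa stood at 445 and 163 CPM and Mrc1 at 25.9 and 37.8 in Interstitial Macrophages 2, and Pf4 had 0 UMIs there in both libraries.

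Within the class at day 1, cells differed in their resident and monocyte genes. Pf4 was found in 76 of 102 (74.5%) and 112 of 139 (80.6%) cells, Cd163 in 23.5% and 27.3%, Folr2 in 14.7% and 17.3%, and Ccr2 in 29.4% and 23.7%. In AT1 cells the shares were 10.9% and 4.87% for Pf4, 0.0487% and 0.113% for Folr2, and 3.75% and 1.70% for Ccr2, all below those of the class. Cd163 was found in 0 of 2054 and 0 of 1765 AT1 cells, where 3 cells would have been shares of 0.146% and 0.170%. Thinned to 2000 UMIs per cell (98 and 131 cells deep enough), the shares were 64.3% and 72.5% for Pf4, 13.3% and 12.98% for Cd163 and 19.4% and 16.8% for Ccr2. Thinned AT1 cells held Pf4 in 4.77% and 1.73% and Ccr2 in 1.21% and 0.597%.

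Pf4 and Ccr2 were found together in some cells. Of the cells with Ccr2, 12 of 30 in the female and 13 of 33 in the male library also had Pf4, against 76 of 102 and 112 of 139 of all members. Mrc1 was found in 16 of 30 and 14 of 33 of the cells with Ccr2, and in 70 of 76 and 104 of 112 of the cells with Pf4. Of the 24 and 38 cells with Cd163, 2 in each library had Ccr2. Across cells, the summed perivascular resident list and the summed classical monocyte list had a Pearson r of -0.50 (rho -0.52, n = 102) and -0.56 (rho -0.52, n = 139). Pf4 is itself in the resident list, with 3255 of its 6919 CPM in the female and 2784 of 6006 in the male library. No r without Pf4 is given. Cells of a library share its depth and free RNA, and a share of UMIs that goes to Pf4 and other abundant genes is not available to the rest. Without the cells with RNA of other lineages r was -0.53 (n = 87) and -0.59 (n = 106).

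**Figure D3:**
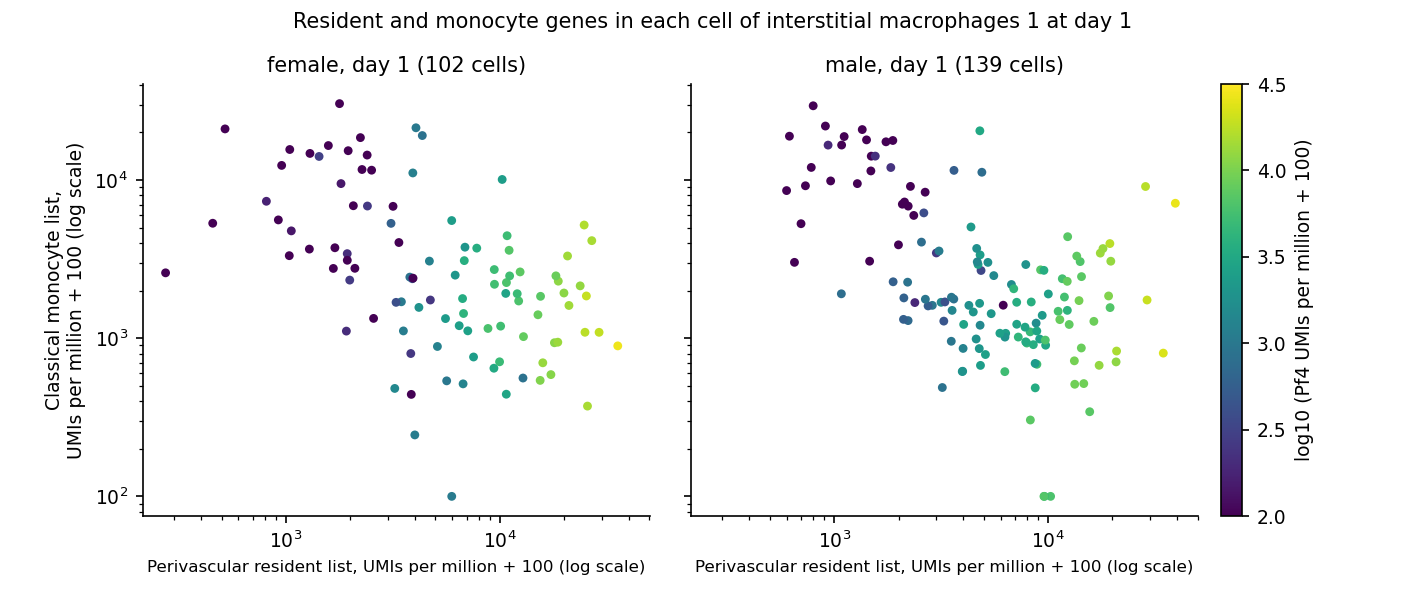
Each point is 1 cell of interstitial macrophages 1 at day 1, with the summed perivascular resident list on the x axis and the summed classical monocyte list on the y axis (CPM of the cell + 100, log axes). Colour gives log10 of Pf4 CPM of the cell + 100. Cells low in Pf4 (dark) lie at the upper left and cells high in Pf4 (light) at the lower right in the female (102 cells) and the male library (139 cells). Pf4 is a member of the resident list, so the order of colours from left to right is partly built in.

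Ranked by Pf4 and divided into 3 ranges (34 cells each in the female, 46, 47 and 46 in the male library), the cells showed the genes that went with it. The ranges were set after the data were seen and carry no test. Mrc1 went from 120 CPM in the lowest range to 554 and 1574 in the female, and from 120 to 647 and 1188 in the male library. Cd163 went from 0 to 52.9 and 245, and from 4.94 to 36.8 and 299. F13a1, coagulation factor XIII, went from 136 to 362 and 1236, and from 204 to 432 and 1245. Monocyte genes ran the other way in both libraries. Ccr2 went from 522 to 61.3 and 3.45 CPM, and from 288 to 24.6 and 8.54. S100a4 went from 513 to 139 and 0, and from 650 to 22.8 and 2.85. Plac8 went from 988 to 379 and 34.5, and from 1136 to 112 and 2.85. The C1q genes went with Pf4 to unequal degrees. C1qa went from 2249 to 4094 and 6441 CPM, and from 2009 to 4254 and 6653, and C1qc from 1688 to 3334 and 4857, and from 1828 to 3031 and 4867. C1qb went from 4064 to 4576 and 6010, and from 3696 to 4010 and 6021. The cells were also less deep in the higher ranges, with medians of 12162, 9664 and 8044 UMIs and of 12312, 10471 and 7085. Cells with RNA of other lineages numbered 3, 8 and 4, and 14, 15 and 4, and their part in these values was not tested.

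Some cells held cell cycle genes. Mki67, a marker of dividing cells, stood at 43.4 and 47.7 CPM, against 8.62 and 6.77 in AT1 cells and 126 and 184 in Transient Macrophages. It was found in 5.88% and 12.2% of cells, against 3.55% and 2.21% of AT1 cells. The male share was 6.36% without doublets and 3.82% thinned to 2000 UMIs. The cell cycle list summed to 898 and 1210 CPM, above the 598 and 436 of Alveolar Macrophages and below the 1486 and 2068 of Transient Macrophages.

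Day 21 cells were too few for the planned tests of age and of hyperoxia, which needed 20 cells in every library. Of the 8, 6, 7 and 6 cells, 7, 4, 7 and 3 had at least 20 C1q UMIs. C1q was 0 in 1, 2, 0 and 3 cells. Those 2 of male room air and 3 of male hyperoxia each held at least 10 endothelial UMIs and were all called doublets. The levels that follow are from the cells with at least 20 C1q UMIs, in the order female room air, male room air, female hyperoxia and male hyperoxia, and they rest on 3 to 7 cells each. Among them 1 female and 2 male room air cells were called doublets.

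**Figure D4:**
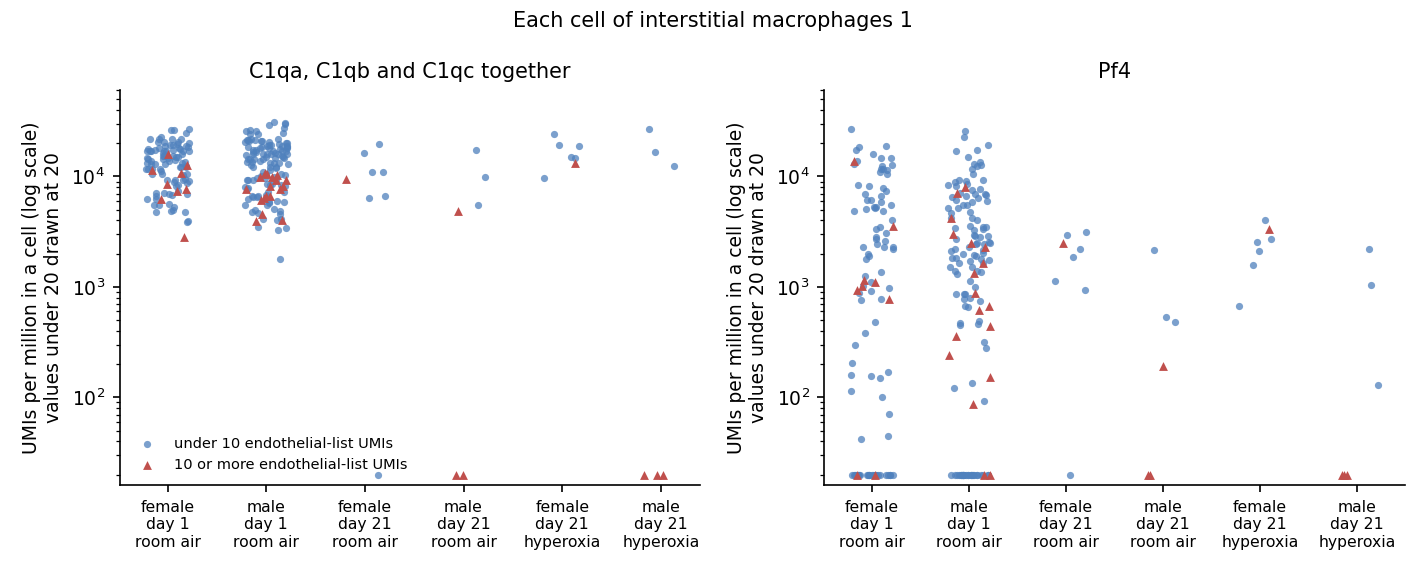
Each point is 1 cell of interstitial macrophages 1, with C1qa, C1qb and C1qc together (left) or Pf4 (right) in UMIs per 1000000 of the cell (log axes, values under 20 drawn at 20). Triangles are cells with at least 10 endothelial UMIs. All cells of the day 1 libraries have C1q UMIs, and 5 triangles at the floor are the male day 21 cells with a C1q count of 0.

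Pf4 stood at 2173, 827, 2560 and 789 CPM, against 3256 and 2805 in the same kind of cells at day 1. In male room air 49 of its 76 UMIs came from 1 cell, without which the level was 390 CPM. Mrc1 stood at 2074, 882, 2514 and 789 CPM, against 654 and 568 at day 1. In male room air 66 of its 81 UMIs came from 1 cell, and without the doublets the level there was 232 CPM, so the ages overlapped. Mertk, the receptor for dying cells, stood at 1146, 370, 781 and 759 CPM against 119 and 70.3, and Adgre1 (F4/80) at 786, 708, 827 and 486 against 185 and 209. For Mertk and Adgre1 every day 21 library lay above both day 1 libraries, also without doublets and without the day 21 cell with the most UMIs of the gene. Without doublets Mertk in male room air stood at 209 CPM, and without that cell Adgre1 stood at 501, 433, 680 and 512 CPM. Lyz2 stood at 8909, 11388, 3742 and 10050.4 CPM against 2825 and 2283. In female room air 643 of its 816 UMIs came from 1 cell, without which the level was 2342 CPM, below that of female cells at day 1. In male room air 699 of its 1046 UMIs came from 1 cell, without which the level was 5008 CPM. Each room air library held 1 cell with many Fn1 UMIs (362 female, 366 male) and 0 Mrc1 UMIs, and it held 56 and 49 of the Pf4 UMIs.

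Genes of the newborn profile that were lower included Ccl2, at 21.8, 0, 45.9 and 0 CPM against 164 and 178, and Hmox1, at 186, 109, 390 and 121 against 560 and 554. In female hyperoxia 29 of its 34 UMIs came from 1 cell, without which the level was 77.3 CPM. Ccr2 was at 0, 21.8, 0 and 0 CPM against 231 and 123. H2-Aa was at 284, 283, 11.5 and 0 CPM against 1.85 and 0, and in male room air 23 of its UMIs came from 1 cell called a doublet, with 0 CPM left without doublets. Cd163 was uneven, at 732 CPM in female room air (3 of 7 cells) and 10.9 in male room air. It stood at 367 CPM in female hyperoxia (5 of 7) and 0 in male hyperoxia, against 83.3 and 85.6 at day 1. In female room air 45 of its 67 UMIs came from 1 cell called a doublet, without which the level was 319 CPM, and female hyperoxia stood at 215 CPM without its highest cell. Vcam1 stood at 240, 32.7, 838 and 364 CPM, against 51.8 and 54.4 at day 1. Without the cell with the most of its UMIs in each day 21 library it stood at 125, 15.1, 340 and 341 CPM. With 3 to 7 cells a library, no difference between room air and hyperoxia or between the sexes was tested.

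Female and male cells at day 1 were close in the C1q genes, Pf4, Mrc1 and Apoe, but not in every defining gene. Crybb1 stood at 51.8 CPM in the female and 124 in the male library, and Ccl12 at 774 and 541. On the log2 scale, with a prior count of 2 and female over male, C1qa differed by 0.03, C1qb by 0.13, C1qc by 0.05, Pf4 by 0.23, Mrc1 by 0.22 and Apoe by -0.10. The sex-linked genes followed the labels, with Xist at 875 and 0 CPM, Ddx3y at 0 and 65.4 and Eif2s3y at 0 and 49.7. Of 6163 genes with at least 50 UMIs over both libraries, 32 (0.519%) were at least 2-fold higher in the female and 173 (2.81%) in the male library. Without the cells with RNA of other lineages the counts were 38 and 22. Without doublets they were 38 and 55.

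The male side was led by genes of other lineages. Sftpc, a surfactant protein of alveolar type 2 cells, stood at 436 and 6510 CPM (log2 -3.89), and 3 male cells held 91.8% of its 9953 UMIs. Scgb3a2, a club cell secretoglobin, stood at 2.77 and 102 CPM (-4.59), Sftpd at 6.47 and 131 (-4.05), Tagln, a smooth muscle gene, at 3.70 and 68.7 (-3.75) and Mecom at 1.85 and 34.7 (-3.42). All 10 epithelial list genes were at least 2-fold higher in the male library, and the list's sum was 864 and 8135 CPM. Without the cells with RNA of other lineages the sums were 402 and 639 CPM, and the 5 genes differed by -0.74 (Sftpc), -0.96 (Scgb3a2), -1.13 (Sftpd and Tagln) and 0.019 (Mecom).

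On the female side the 5 leading genes kept their direction without those cells. Siglece, an inhibitory sialic acid receptor, stood at 58.2 and 20.9 CPM (log2 1.41, and 1.64 without them). Atf3, a stress-induced transcription factor, stood at 109 and 41.2 (1.37 and 1.11), Gm26802 at 47.1 and 17.7 (1.34 and 2.48), Dusp16 at 49.0 and 19.6 (1.26 and 1.22) and Fn1 at 144 and 60.8 (1.22 and 1.04). For Siglece and Fn1, 3 female cells held 50.8% and 51.3% of the UMIs.

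**Figure D5:**
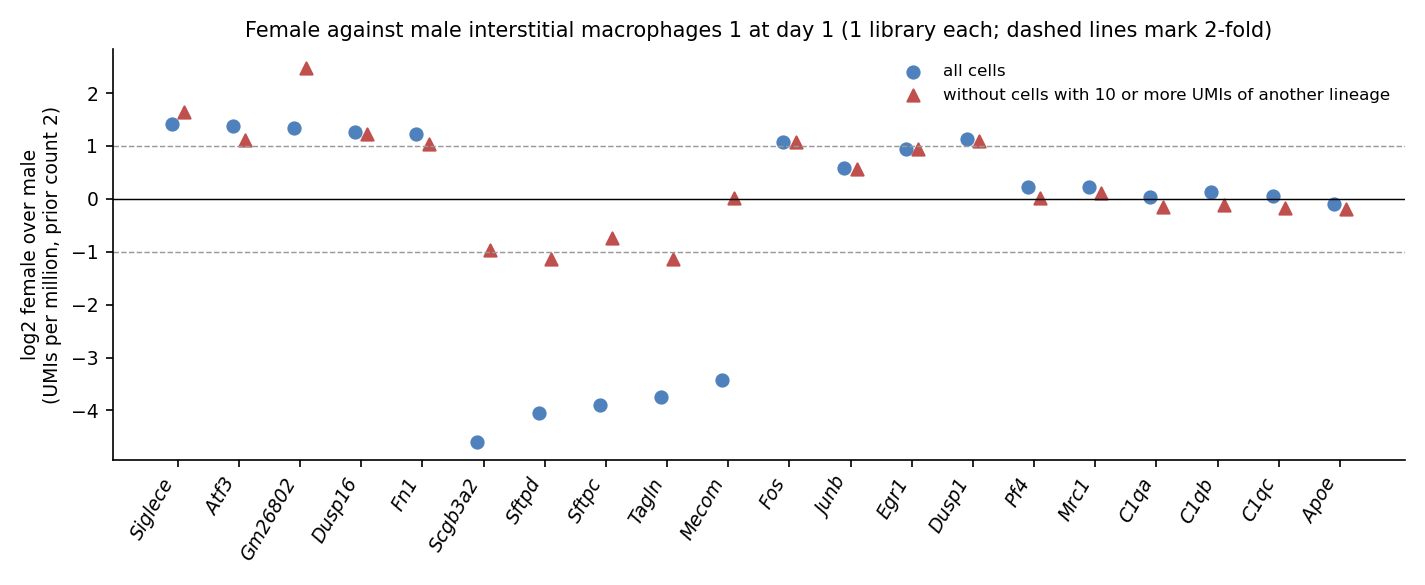
Log2 ratio of female over male at day 1 (CPM, prior count 2) for the 10 autosomal genes named by rule, for immediate early genes and for the C1q genes, Apoe, Pf4 and Mrc1. Circles use all cells and triangles leave out cells with at least 10 UMIs of another lineage, and dashed lines mark 2-fold. The 5 male-side genes move from between -4.59 and -3.42 to between -1.13 and 0.019, while Fos and Dusp1 stay near 1.1.

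Immediate early genes were higher in the female library. Of 15 genes measured from a list of dissociation and stress genes, 14 were higher in the female cells and 3 at least 2-fold. This stood beside 3208 of 6163 and 0.519% of all genes. The list's median log2 difference was 0.62 against 0.02 over all genes. Its heat shock genes measured were at 0.28 (Hspa8), 0.12 (Hsp90aa1) and -0.55 (Dnajb1). Fos stood at 2452 and 1166 CPM (1.07) and Dusp1 at 766 and 348 (1.14). The same list had medians of 0.80, 0.92, 0.48 and 0.50 in Alveolar Macrophages, Transient Macrophages, Classical Monocytes 1 and Classical Monocytes 2 of the same libraries. Of 17 interferon-stimulated genes, 1 was higher in the female cells, with a median of -0.40, and the other 4 classes had -0.64, -0.27, -0.56 and -0.47. In these 4 classes the direction of both lists was the same as in interstitial macrophages 1. The 2 libraries are 1 pool per sex, so sex and library cannot be told apart.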

How the data were processed

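The authors deposited UMI counts per gene and barcode for 6 libraries (10x Genomics 3-prime chemistry, per the labels' protocols), and a cluster name per barcode. Counts were made with Cell Ranger 6.0.0 (day 1) and 7.0.1 (day 21), per the file headers. The submitters' processing notes name Cell Ranger 6.0.0, Seurat 4.1.1 and mm10. Whether introns were counted is not given in the sources used here. Library depth was 122173482 to 163649658 UMIs, which for the 6 to 139 members per library leaves counting error as given beside the values.

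Counts were summed per library and class and expressed as CPM (per 1000000 UMIs of the class). CPM carry exact Poisson 95% intervals and shares exact binomial ones, and ratios used a prior count of 2 scaled to library size. A class entered with at least 50 cells. With 1 library per group no count model was fitted. Other-lineage cells held at least 10 UMIs of an epithelial (without Sftpc), endothelial or fibroblast list. Correlations used log values after adding 100 CPM. Doublets were called with Scrublet (scanpy 1.11.5), TMM factors came from edgeR 4.0.16, and the ratio code was tested on simulated data. Of 32285 genes, 32158 had an ID in GENCODE M21 (GRCm38), the source of gene coordinates.

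The members and all 34 lists were chosen with earlier results of these data known. The rule for named genes took the 20 with the highest value of the lower of the 2 day 1 log2 ratios against the highest other class, with at least 50 UMIs in each library. It took the 5 highest and 5 lowest per neighbouring class, the 5 autosomal genes highest and lowest between the sexes with at least 50 UMIs over both libraries, and the sex-linked list. List members served as examples.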

Additional observations from a re-analysis of the deposited data

Results flagged for a closer look

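Some barcodes to which the authors gave no class held C1q RNA and entered no comparison. With at least 20 UMIs over C1qa, C1qb and C1qc there were 41 of 3425 such barcodes in the female and 45 of 3180 in the male day 1 library. At day 21 there were 19 of 2457 (female, room air), 23 of 3459 (male, room air), 24 of 3683 (female, hyperoxia) and 28 of 3938 (male, hyperoxia). In all 4 day 21 libraries this was more barcodes than the class itself held, but their MHC class II levels were unlike those of the class. H2-Aa stood at 2456, 3178, 6084 and 3494 CPM in them, against 284, 283, 11.5 and 0 in the day 21 members with as many C1q UMIs. At day 1 it stood at 28.6 and 145 CPM. Among AT1 cells the number was 4 of 2054 in the female and 0 of 1765 in the male day 1 library, the latter with an exact upper limit of 0.209%. The day 21 libraries held only 14 to 57 AT1 cells, too few to give a background. Among their gCap cells it was 0 of 1784, 0 of 1425, 1 of 2434 and 0 of 2869. At least 5 Pf4 UMIs were held by 28, 27, 12, 16, 15 and 16 of these barcodes, in the same order. Those with at least 10 UMIs of another lineage numbered 25, 23, 12, 9, 7 and 6. Scrublet called 22, 23, 13, 6, 6 and 4 of these barcodes doublets. At day 1 Sftpc stood at 41204 and 63938 CPM in these barcodes. Their median mitochondrial share was 4.59% and 5.19% at day 1, against 3.43% and 3.33% in members with as many C1q UMIs.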

How the results depend on the processing

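The day 1 excess in the share of cells was 0.763 to 4.65 percentage points under other denominators and filters and 0.802 to 1.15 with a library left out. The 76 genes 4-fold above all classes became 138 with at least 10 UMIs and 88 to 221 with a day 1 library left out. They fell to 54 with TMM scaling, 64 without doublets and 60 without other-lineage cells, which lost 22, 20 and 24 of the 76. Counts 2-fold higher in the female and male libraries were 171 and 719 with at least 10 UMIs, 8 and 38 with at least 200, and the female count was 20 with a prior count of 5. The male count was 55 without doublets and 22 without other-lineage cells, where Mecom turned to 0.019. Fewer genes are tested at a higher minimum, and for the other settings the cause was not tested. Dusp16 was 1.00 and Scgb3a2 -0.91 without doublets.

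Thinned to 2000 UMIs, shares of cells in the female library were 64.3% (Pf4), 16.3% (Lyve1), 13.3% (Cd163) and 19.4% (Ccr2). In the male library they were 72.5%, 12.2%, 12.98% and 16.8%, and 3.82% for Mki67. Thinned to 4000, male Cd163 was 18.3% and Mki67 6.35%. Male Lyve1 was 14.2% without other-lineage cells, and male Mki67 6.36% without doublets. The lowest day 21 level minus the highest day 1 level turned to -495 CPM for Mrc1 without doublets, and to -436 (Mrc1) and -483 (Lyz2) without the cell with the most UMIs. Of the remaining values, 51 for the comparisons and 229 for named genes kept their side. No paired analysis was possible because each group is 1 library. Tests of age and hyperoxia, and their alternatives, were not run, since day 21 libraries held 6 to 8 members.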
